A study of Mus musculus with 20 samples.

Results

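The transcription factors Foxa1, Foxa2, Foxa3, Cdx1, Cdx2, Hnf4a and Pdx1, best known from the gut endoderm, were followed here in sorted gut mesenchyme with and without Eed. They were chosen by gene symbol, make up 7 of the 43280 genes in the count tables, and were all found there. The study addressed how Polycomb repressive complex 2 (PRC2), of which Eed is a core subunit, shapes the mesenchyme of the stomach and the intestine. It gave 12 RNA-seq libraries, 2 for each of 6 groups, and ATAC-seq of 4 embryonic groups, in which the 2 libraries of a group were pooled into 1 list of accessible regions (peaks). Embryonic cells were GFP+ mesenchyme sorted at E13.5 from stomach and intestine that had been separated by microdissection. Control embryos carried Bapx1-Cre and the Rosa26mTmG reporter, and Eed KO embryos carried Eed fl/fl besides these. The labels of the embryonic libraries give the strain as C57BL/6, whereas the reporting summary of the study gives that strain for the Bapx1-Cre line and mixed backgrounds for Eed fl and Rosa26mTmG. Adult controls carried Pdgfrβ-CreERT2 and Rosa26mTmG, and the adult libraries labelled Eed KO came from animals with Eed fl/fl as well. The same summary gives a mixed background for the Pdgfrβ-CreERT2 line. GFP+ stromal cells of the small intestine were sorted from these tamoxifen-treated animals at about 10 weeks, after villi and epithelium had been removed. Both sorts were thus limited by design to cells that had expressed the Cre gene, Bapx1 (Nkx3-2) or Pdgfrb, and to their descendants. Reads assigned to genes numbered 30236159 to 39606157 in the embryonic libraries and 11404712 to 15903642 in the adult libraries. A count of 0 allows 3 counts in a library at 95% confidence. By plain library size this equals 0.0757 to 0.0992 CPM (counts relative to library size) in the embryonic and 0.189 to 0.263 CPM in the adult libraries. All CPM values below use library sizes scaled by TMM (trimmed mean of M values). On that scale the floors are 0.0765 to 0.101 CPM in the embryonic and 0.2098 to 0.3005 CPM in the adult libraries. Counting intervals and floors cover counting error only, while the 95% intervals of edgeR log2 fold changes also take in the spread between libraries.

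FOXA proteins are forkhead factors that open chromatin during endoderm formation, and CDX proteins are homeobox factors that set intestinal identity in the epithelium. HNF4A is a nuclear receptor of liver and intestinal epithelium, and PDX1 is a homeobox factor of the pancreas, the duodenum and the distal stomach. The mesenchyme around the gut tube derives from mesoderm, and PRC2 places the repressive mark H3K27me3 on silent developmental genes in many lineages.

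Eed, the deleted gene, stood at 38.1 and 40.1 CPM in the control intestine, 40.0 and 41.5 in the control stomach, 10.7 and 8.58 in the intestine with Eed KO, and 11.5 and 7.402 in the stomach with Eed KO. Every Eed KO library lay below every control library at E13.5. Eed fell by 2.11 on the log2 scale in the stomach (SE 0.21, adjusted p 0.00175, edgeR, lower in 2 of 2 libraries) and by 2.02 in the intestine (SE 0.21, adjusted p 0.00464, lower in 2 of 2). Scaled by spike-in totals, Eed was called in neither organ, at 0.14 (stomach) and −0.23 (intestine), or −2.24 and −2.08 relative to the shift of the median gene. In the adult, Eed stood at 29.7 and 33.4 CPM in the control libraries and at 25.6 and 25 in those labelled Eed KO. The TMM factors behind these values were 1.20 and 1.17 in the controls against 0.874 and 0.815. By plain library size the difference was larger. The counts were 406 and 477 of 11404712 and 12225290 in the controls, against 256 and 324 of 11423651 and 15903642. The groups did not overlap in the adult, but with TMM Eed fell by only 0.32 on the log2 scale there (SE 0.21, adjusted p 0.317, edgeR, lower in 2 of 2), which was not past the threshold. Under spike-in totals Eed fell by 0.76 in the adult (adjusted p 0.355, edgeR) and was also not called. Adult Eed KO replicate 2 also stood apart by its pancreas genes, which summed to 1814 CPM against 30.1 to 67.5 in the other adult libraries, so the adult result for Cdx1 is given with and without it. The Cre gene Nkx3-2 ranged from 13.46 to 36.9 CPM in the embryonic libraries, with log2 fold changes of −0.06 (stomach) and 0.14 (intestine) under Eed KO. All 12 mesenchyme markers (Vim, Pdgfra, Pdgfrb, Col1a1, Col1a2, Col3a1, Foxf1, Foxf2, Twist1, Gli1, Nkx3-2, Osr1) had counts in each embryonic library, with Col3a1 the most abundant at 5623 to 9549 CPM. Of these 12 markers edgeR and DESeq2 called 0 in either Eed KO comparison at E13.5, 4 in each had an unadjusted p under 0.05, 1 was called in the stomach without Eed KO stomach replicate 1, and the median log2 fold changes were −0.18 (stomach) and 0.07 (intestine). Between the organs Twist1 was called lower in the intestine of the controls (−1.04), a call lost without control intestine replicate 1, control intestine replicate 2 or control stomach replicate 2. With Eed KO, Foxf2 was called higher in the intestine than in the stomach (1.18) and Osr1 lower (−1.05), of which the Osr1 call was lost without Eed KO intestine replicate 2 or Eed KO stomach replicate 2.

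The promoters of Foxa1, Foxa2, Cdx2 and Hnf4a are shown as RefSeq gives them for GRCm38.p6, because Foxa1 is the member called at E13.5, Foxa2 is the other FOXA member with enough counts to be tested, Cdx2 is the other member with a forkhead motif there, and Hnf4a is the member without a promoter peak. Each runs 5′ to 3′ along the strand of its gene, from 250 bases before to 50 bases after the start. Capitals mark the forkhead motif TGTTTAC or its reverse complement GTAAACA, which 1199 of 32851 promoters held (3.65%). Foxa1 lies at chr12:57546062-57546361 on the minus strand, Foxa2 at chr2:148046920-148047219 on the minus strand, Cdx2 at chr5:147307200-147307499 on the minus strand, and Hnf4a at chr2:163506607-163506906 on the plus strand.
Foxa1: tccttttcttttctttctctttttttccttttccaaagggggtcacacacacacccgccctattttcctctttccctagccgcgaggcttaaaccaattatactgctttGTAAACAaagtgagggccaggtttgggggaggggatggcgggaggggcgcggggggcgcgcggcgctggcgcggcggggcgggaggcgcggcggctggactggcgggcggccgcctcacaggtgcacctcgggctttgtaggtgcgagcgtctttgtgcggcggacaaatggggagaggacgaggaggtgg
Foxa2: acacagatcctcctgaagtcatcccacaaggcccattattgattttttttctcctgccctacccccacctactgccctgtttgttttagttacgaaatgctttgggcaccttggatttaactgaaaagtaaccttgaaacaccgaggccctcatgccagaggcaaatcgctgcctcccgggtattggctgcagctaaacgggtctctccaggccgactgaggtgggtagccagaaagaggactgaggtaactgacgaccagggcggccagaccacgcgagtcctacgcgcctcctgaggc
Cdx2: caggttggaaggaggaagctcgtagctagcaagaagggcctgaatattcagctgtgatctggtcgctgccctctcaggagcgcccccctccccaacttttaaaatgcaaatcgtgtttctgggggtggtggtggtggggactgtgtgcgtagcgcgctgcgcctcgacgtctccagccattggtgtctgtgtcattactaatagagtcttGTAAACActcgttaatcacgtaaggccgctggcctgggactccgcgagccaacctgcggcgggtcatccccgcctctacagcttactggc
Hnf4a: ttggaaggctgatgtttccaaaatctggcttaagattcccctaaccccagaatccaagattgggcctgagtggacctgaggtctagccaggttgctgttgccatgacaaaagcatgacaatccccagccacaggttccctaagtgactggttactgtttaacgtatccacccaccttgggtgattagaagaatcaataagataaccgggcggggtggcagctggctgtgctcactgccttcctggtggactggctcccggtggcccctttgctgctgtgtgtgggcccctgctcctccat
The Foxa1 promoter held GTAAACA at −141 to −135 from the start, and the Cdx2 promoter held it at −40 to −34. Such a match describes the letters and is not evidence of binding. The Foxa1 promoter had 26 CpG dinucleotides, more than 83.1% of all promoters, whose median was 7. Cdx2 had 18 (more than 70.3% of promoters), Foxa2 had 12 in the entry shown (more than 60.4%) and 23 and 13 in its other entries (more than 78.5% and 62.1%), and Hnf4a had 4 in each of its entries (more than 31.4%). In all, 6 of the 7 members matched the promoter table, and Cdx1 did not. The motif TTTATNG or CNATAAA, of the CDX type, was in 10.9% of promoters and occurred in that of Foxa3 at −37 to −31, with letters that a TATA box would share. CAAAGTCC or GGACTTTG, of the HNF4 type, was in 1.42% of promoters and in none of the members' entries, and TAATTA, a homeodomain core that reads the same on both strands, was in 5.29% and occurred in the other entry of Hnf4a at −165 to −160.

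Foxa1, a forkhead factor of early endoderm, gave 2 and 3 counts in the control intestine, 5 and 20 in the control stomach, 37 and 37 in the intestine with Eed KO, and 221 and 273 in the stomach with Eed KO. Every Eed KO library exceeded every control library, and both Eed KO stomach libraries stood far above the rest. In CPM scaled by TMM, Foxa1 was at 0.0562 and 0.101 in the control intestine, 0.145 and 0.510 in the control stomach, 0.976 and 1.06 in the intestine with Eed KO, and 5.93 and 7.48 in the stomach with Eed KO. In bulk RNA, a change in the number of cells with a transcript and a change in its amount per cell cannot be told apart.

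In the stomach, the Foxa1 rate was 19.8-fold higher with Eed KO (95% counting interval 13.2 to 30.8). The edgeR log2 fold change of Foxa1 was 4.31 (SE 0.45, 95% interval 3.26 to 5.36, adjusted p 0.00229), with 2 of 2 Eed KO libraries above both controls. A gene was called when its adjusted p was under 0.05 and its log2 fold change above 1 in size. Foxa1, Foxa2 and Cdx1 had enough counts to be tested at E13.5, and of these 3 only Foxa1 was called in the stomach, beside 5.65% of the 16218 genes tested in either direction and 4.84% as higher. All 3 had an unadjusted p under 0.05, and DESeq2 called 2, Foxa1 and Cdx1. The filter keeps a gene by its counts in any group. These 3 were low in the controls and entered through the Eed KO libraries, which raises such shares here and in the intestine. With no filter edgeR called 3 of the 7 members in the stomach and 2 of the 7 in the intestine. Over all 25364 genes it then called 1268 in the stomach and 800 in the intestine. Foxa1 ranked 133 by size among the 785 genes called higher, whose median log2 fold change was 2.14. The call for Foxa1 held without each of the 4 stomach libraries, but the size rested on the controls. Without control stomach replicate 2 the Foxa1 log2 fold change was 5.50, and without control stomach replicate 1 it was 3.70.

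In the intestine, Foxa1 was 13.3-fold higher with Eed KO by counts (95% counting interval 5.43 to 42.0). Its edgeR log2 fold change was 3.67 (SE 0.62, 95% interval 2.21 to 5.12, adjusted p 0.0261), higher in 2 of 2 libraries. Foxa1 was again the 1 member called of the 3 tested, beside 2.61% of all tested genes in either direction and 2.38% as higher. Unadjusted, 2 of the 3 had p under 0.05, and DESeq2 called 2, Foxa1 and Foxa2. This call for Foxa1 was lost without control intestine replicate 1 (adjusted p 0.214), control intestine replicate 2 (0.127), Eed KO intestine replicate 1 (0.0502) or Eed KO intestine replicate 2 (0.0772), while its log2 fold change stayed between 3.28 and 4.09. With 2 libraries a group an exact permutation test cannot go below a two-sided p of 0.333, so these p-values rest on the spread that edgeR shares over groups and genes. The study describes 2 biological replicates a group for sequencing, and the labels do not say whether each is 1 animal, so the p-values measure the spread between these libraries.

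**Figure D1:**
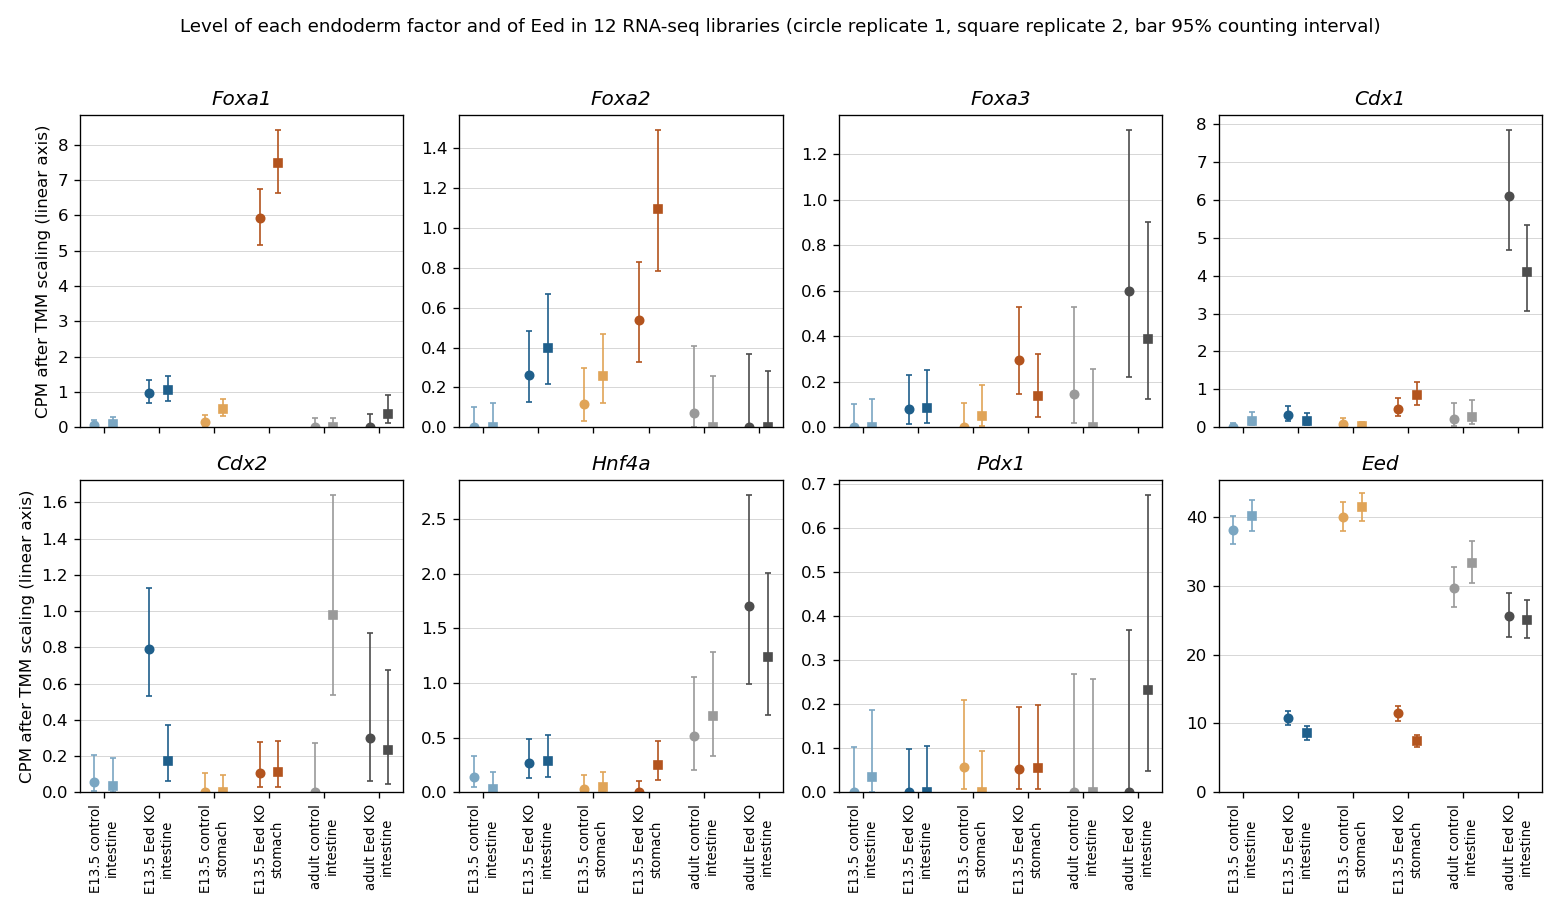
Level of each member and of Eed in the 12 RNA libraries in CPM scaled by TMM (vertical axis), by group (horizontal axis), with replicate 1 as circles, replicate 2 as squares and 95% counting intervals as bars. Foxa1 reaches 5.93 and 7.48 CPM in the Eed KO stomach, and Cdx1 reaches 6.11 and 4.09 CPM in the adult libraries labelled Eed KO.

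Foxa2, the forkhead factor of notochord, floor plate and foregut endoderm, gave 0 and 0 counts in the control intestine, 4 and 10 in the control stomach, 10 and 14 in the intestine with Eed KO, and 20 and 40 in the stomach with Eed KO. Within each organ the Eed KO libraries lay above the controls without overlap, although the Eed KO intestine and the control stomach met at 10 counts. In the stomach Foxa2 was 4.29-fold higher with Eed KO (95% counting interval 2.37 to 8.30). Its log2 fold change of 2.09 (SE 0.58, adjusted p 0.086, edgeR, higher in 2 of 2 libraries) was not called. With each library left out in turn that value ran from 1.49 to 2.78. In the intestine Foxa2 was at least 7.16-fold higher with Eed KO against a floor of 3 counts over the control group, with an adjusted p of 0.0650 in edgeR, higher in 2 of 2 libraries, and also not called. Foxa2 was called in both organs with the replicate number as a block, and also with no filter on low counts, at adjusted p 0.0308 in the stomach and 0.00604 in the intestine, within a range of 0.000129 to 0.664 and of 5.12e-05 to 0.0927 over the 6 alternatives of processing that keep all libraries. Its stomach log2 fold change ran from 0.69 with 1 spike-in factor to 4.60 under spike-in totals.

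Foxa3, the FOXA paralogue of liver and gut endoderm, gave 0 and 0 counts in the control intestine, 0 and 2 in the control stomach, 3 and 3 in the intestine with Eed KO, and 11 and 5 in the stomach with Eed KO. Its Eed KO libraries exceeded the controls of the same organ, at 24 counts over all 8 embryonic libraries. Foxa3 was 7.998-fold higher in the stomach with Eed KO (95% counting interval 1.88 to 71.7) and at least 1.79-fold higher in the intestine. It had too few counts for the filtered test, and with no filter edgeR gave adjusted p of 0.233 (stomach) and 0.445 (intestine).

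Cdx1, a homeobox factor of the intestinal epithelium, gave 0 and 5 counts in the control intestine, 3 and 1 in the control stomach, 12 and 6 in the intestine with Eed KO, and 18 and 31 in the stomach with Eed KO. The Eed KO stomach was the highest group for Cdx1, and in both organs the Eed KO libraries lay above the controls, by 1 count in the intestine. Cdx1 was 12.3-fold higher in the Eed KO stomach (95% counting interval 4.49 to 46.7). Its log2 fold change of 3.53 (SE 0.94, adjusted p 0.0653, edgeR, higher in 2 of 2 libraries) was not called. With each library left out in turn that value ran from 2.89 to 4.53. However, 4 of the 6 alternatives that keep all libraries called Cdx1, among them the replicate number as a block. Spike-in totals were also among these 4, but called 15438 of the 16218 genes tested in the stomach. In the intestine the Cdx1 ratio was 3.22 (95% counting interval 1.15 to 11.1) and its log2 fold change 1.61 (SE 1.02, adjusted p 0.603, edgeR, higher in 2 of 2). Without control intestine replicate 1 that log2 fold change of Cdx1 was 0.53, and without control intestine replicate 2, which held all 5 control counts, no control count was left.

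Cdx2, the homeobox factor that specifies intestinal epithelium, gave 2 and 1 counts in the control intestine, 0 and 0 in the control stomach, 30 and 6 in the intestine with Eed KO, and 4 and 4 in the stomach with Eed KO. Both Eed KO intestine libraries were above all the other embryonic libraries for Cdx2, though 30 of their 36 counts came from Eed KO intestine replicate 1. Cdx2 was 10.7-fold higher with Eed KO in the intestine (95% counting interval 3.39 to 54.5) and at least 2.67-fold higher in the stomach. Between the Eed KO organs Cdx2 was 4.55-fold higher in the intestine (95% counting interval 2.08 to 11.3). With no filter, edgeR gave Cdx2 an adjusted p of 0.0630 in the intestine, 0.135 in the stomach and 0.176 between the Eed KO organs.

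Hnf4a, a nuclear receptor, gave 5 and 1 counts in the control intestine, 1 and 2 in the control stomach, 10 and 10 in the intestine with Eed KO, and 0 and 9 in the stomach with Eed KO. Like Cdx2, Hnf4a was highest in the Eed KO intestine, and its intestinal groups did not overlap, while its stomach groups did. Hnf4a was 2.98-fold higher with Eed KO in the intestine (95% counting interval 1.16 to 9.08) and 3.00-fold higher in the stomach (0.749 to 17.2), where Eed KO stomach replicate 2 held every count of its group. With no filter its adjusted p was 0.797 in the intestine and 0.655 in the stomach (edgeR). Its antisense transcript Hnf4aos had 0 counts in all 12 libraries.

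Pdx1, the pancreatic and duodenal homeobox factor, gave 0 and 1 counts in the control intestine, 2 and 0 in the control stomach, 0 and 0 in the intestine with Eed KO, and 2 and 2 in the stomach with Eed KO. With 7 counts over 8 libraries, no difference in Pdx1 was detectable at this depth.

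Per transcript length, as length-scaled transcript abundance (TPM), Foxa1 was the most abundant member in the Eed KO stomach at a mean of 6.76 (SD 1.30, n = 2). Cdx1 at 1.23 (SD 0.511) and Foxa2 at 1.11 (SD 0.568) followed and did not differ beyond their spread. Foxa3 at 0.337, Cdx2 at 0.154, Hnf4a at 0.0836 and Pdx1 at 0.0403 came after them, and Cdx2 and Pdx1 lay within the spread of Hnf4a (SD 0.118). In the Eed KO intestine Foxa1 led at 0.968 (SD 0.0881), but Cdx2 at 0.635 (SD 0.565) did not differ beyond its spread from Foxa1, Foxa2 (0.427), Cdx1 (0.420), Hnf4a (0.173) or Foxa3 (0.123). The control stomach held Foxa1 at 0.312 (SD 0.245), which did not differ beyond its spread from Foxa2 at 0.238 or Cdx1 at 0.0977, then Foxa3 at 0.0379, Hnf4a at 0.0252 and Pdx1 at 0.0204, with Cdx2 at 0. In the control intestine the highest mean was that of Cdx1 at 0.146, from 1 library alone, and Foxa1 (0.0742), Cdx2 (0.0593), Hnf4a (0.0535) and Pdx1 (0.0119) lay at or near the level of single counts, with Foxa2 and Foxa3 at 0. The highest TPM of any member in any embryonic library was 7.68, for Foxa1 in Eed KO stomach replicate 2.

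**Figure D2:**
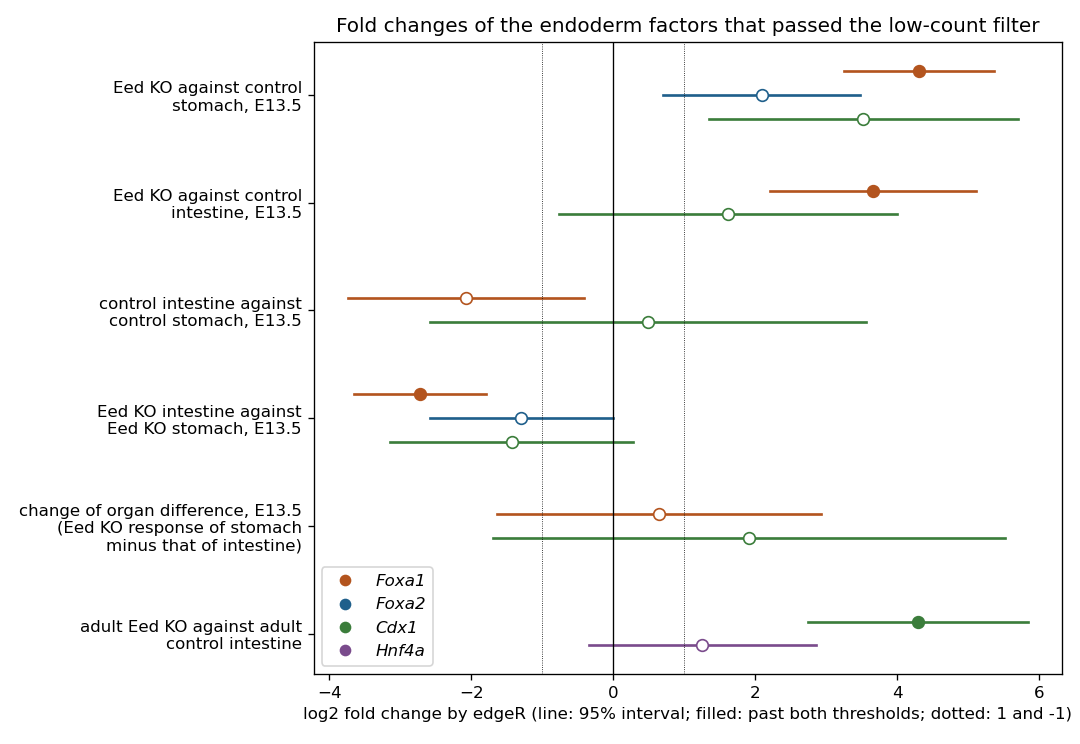
Log2 fold change (horizontal axis) with its 95% interval for each tested member in each RNA comparison (edgeR), with filled points where both thresholds were passed. Foxa1 is filled in both Eed KO comparisons at E13.5 and between the Eed KO organs, Cdx1 in the adult, and Foxa2 is left out wherever 1 of the groups had no count.

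Whether the members differ between the organs was read first in the controls. Foxa1 was 4.43-fold lower in the intestine than in the stomach of the controls (95% counting interval 1.67 to 14.8), with 2 of 2 intestinal libraries below both stomach libraries. Its log2 fold change of −2.07 (SE 0.72, adjusted p 0.166, edgeR) was not called. Foxa2 was at least 4.13-fold lower in the control intestine, with an adjusted p of 0.0882 and both intestinal libraries at 0. Of the 3 tested members edgeR called 0, beside 5.07% of all tested genes, while 2 (Foxa1 and Foxa2) had an unadjusted p under 0.05 and DESeq2 called 1. Without control stomach replicate 1, which had 5 counts of Foxa1 against 20 in its partner, Foxa1 was called at a log2 fold change of −2.68 and an adjusted p of 0.0438, and without control stomach replicate 2 its log2 fold change was −0.88 (adjusted p 0.810). With the replicate number as a block, 2 were called, Foxa1 (adjusted p 0.0495) and Foxa2 (0.0354). Cdx1 overlapped between the control organs, with a ratio of 1.41 (95% counting interval 0.304 to 7.11).

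Between the Eed KO organs, Foxa1 was 6.60-fold lower in the intestine than in the stomach (95% counting interval 5.16 to 8.55), with no overlap. Its log2 fold change was −2.72 (SE 0.40, 95% interval −3.65 to −1.79, adjusted p 0.00923, edgeR, lower in 2 of 2 libraries). Foxa1 was the 1 member called of the 3 tested, beside 4.4% of all tested genes, and 2 of the 3 had an unadjusted p under 0.05. Without Eed KO stomach replicate 2 this call was lost, at a log2 fold change of −2.54 and an adjusted p of 0.0568. Foxa2 was 2.47-fold lower in the Eed KO intestine (95% counting interval 1.52 to 4.15, adjusted p 0.249), and Cdx1 2.69-fold lower (95% counting interval 1.54 to 4.91, adjusted p 0.342). With each library left out in turn the log2 fold change ran from −1.72 to −0.69 for Foxa2 and from −1.94 to −0.96 for Cdx1. The 2 organ comparisons and the 2 Eed KO comparisons use the same libraries in pairs, so their values are set side by side and not counted as separate evidence.

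The test of whether Eed KO changed the organ difference, with values given as the log2 fold change under Eed KO of the stomach minus that of the intestine, called 0 of the 3 tested members at an adjusted p under 0.2 and a log2 change above 1 in size, beside 0.462% of all tested genes (edgeR). At an unadjusted p under 0.05 there was 1, Foxa2 (p 0.0432, adjusted p 0.819), whose control intestine libraries were at 0, and DESeq2 called 0. For Foxa1 the stomach value exceeded that of the intestine by 0.65 (SE 0.98, adjusted p 1). With each library left out in turn that excess ran from 0.04 to 1.83. The larger log2 fold change of Foxa1 in the stomach than in the intestine was thus not shown to differ between the organs.

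The list of related endoderm transcription factors, to which the members were compared, held 30 genes, of which 17 were tested at E13.5. With Eed KO in the stomach 12 of these 17 were called higher and 0 lower, with a median log2 fold change of 2.51 against 0.00 over all tested genes. The 5 with the largest log2 fold change were Nkx2-2, Grhl2 (4.55), Sox17, Onecut2 (3.98) and Sox2 (3.82), beside 4.31 for Foxa1. Nkx2-2 and Sox17 had 1 count each in the control stomach, and their ratios were 54.0 (95% counting interval 9.29 to 2171) and 24.0 (3.91 to 986.7). Of these 5, Grhl2, Onecut2 and Sox2 kept the call without each library in turn, while Sox17 lost it every time and Nkx2-2 without any but Eed KO stomach replicate 1. In the intestine 10 of the 17 were called higher and 0 lower, with a median of 2.52 (2.45 with Sox17 and Nkx2-2, absent from the controls, at their lower bounds) against 0.01. There Sox17 was at least 8.95-fold higher and Nr5a2 25.7-fold higher (95% counting interval 8.49 to 126.9, 3 counts in the controls), and Gata4 at 3.69, Sox2 at 3.39 and Hhex at 3.09 followed, beside 3.67 for Foxa1. The filter keeps a gene by its counts in any group, so factors near 0 in the controls entered through the Eed KO libraries, which raises such shares and medians. With no filter 14 of 28 were called higher in the stomach and 10 of 28 in the intestine, and 0 lower. Over all 25364 genes 1070 and 734 were then called higher. In the filtered intestine test Sox2 kept the call without each library, Sox17 lost it every time, Nr5a2 and Hhex lost it without either control library and Gata4 without control intestine replicate 1. These counts of genes beside Foxa1 depended on single libraries. In the stomach 5 were called without control stomach replicate 1, 5 without control stomach replicate 2 and 6 without Eed KO stomach replicate 2, and in the intestine 1 was called without control intestine replicate 1, 4 without control intestine replicate 2 and 6 without Eed KO intestine replicate 2.

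The summed level of the 30 related factors was 22.7 and 32.9 CPM in the control intestine, 74.6 and 70.3 in the control stomach, 80.3 and 88.0 in the intestine with Eed KO, and 228.8 and 264.6 in the stomach with Eed KO. This order of groups was that of Foxa1, with Gata6 the most abundant factor in every embryonic library. The sums were weighted to Gata4 and Gata6. In replicate 1 of the Eed KO stomach these stood at 87.2 and 90.4 CPM, and in replicate 1 of the control stomach at 14.5 and 36.8. The order of the sums thus mainly describes these 2 factors and not the list as a whole. Between the control organs 1 of the 17 was called higher in the intestine (Prox1, 1.87) and 4 lower (Gata4, −3.66; Sox9, −3.40; Gata5, −1.81; Klf5, −1.04), with a median of −1.04 beside −2.07 for Foxa1. Of those 4 lower, Gata5 and Klf5 lost the call without any 1 of the 4 libraries. Between the Eed KO organs 8 were called lower in the intestine and 0 higher, with a median of −0.97 beside −2.72 for Foxa1. They included Trp63 (at least 17.1-fold lower), Nkx2-2 (−2.89), Gata4 (−2.56), Sox21 (−2.44) and Klf5 (−1.74), of which Gata4 and Klf5 kept the call without each library. The number called lower was 3 without Eed KO intestine replicate 1 or Eed KO stomach replicate 2, and 4 without Eed KO intestine replicate 2 or Eed KO stomach replicate 1. For the change of the organ difference (stomach minus intestine, as above), Sox9 was the 1 related factor called, at −1.74 (adjusted p 0.108), so with the larger log2 fold change under Eed KO in the intestine, and the median was 0.02 beside 0.65 for Foxa1. The Sox9 call held only without Eed KO intestine replicate 1 or Eed KO intestine replicate 2, and was lost without any 1 of the other 6 libraries and under spike-in totals (adjusted p 0.926).

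Genes known to be regulated by FOXA, CDX or HNF4A in endoderm formed a list of 20, of which 10 were tested at E13.5. With Eed KO in the stomach, where Foxa1 rose, 0 of these 10 target genes were called higher and 1 lower (Alb, −3.19), with 6 at an unadjusted p under 0.05 and a median log2 fold change of 0.29. DESeq2 called 1 higher and 1 lower there. In the intestine edgeR called 0 of the 10 beside the Foxa1 rise, with 5 at an unadjusted p under 0.05, 0 called by DESeq2 and a median of 1.14. Their summed level was 9.24 and 10.7 CPM in the control intestine, 10.6 and 11.6 in the control stomach, 13.7 and 11.01 in the intestine with Eed KO, and 13.7 and 12.5 in the stomach with Eed KO, with Mttp the most abundant in each. Between the organs Apob was called higher in the intestine in the controls (ratio 20.3, 95% counting interval 3.21 to 846.5) and with Eed KO (2.93 on the log2 scale), and Alb was called lower in the intestine of the controls (ratio 29.2, 95% counting interval 7.78 to 246.4). The Alb call in the Eed KO stomach and the Apob call between the Eed KO organs were each lost without any 1 of the 4 libraries compared. Between the control organs 0 of these target genes were called without control intestine replicate 1 or control stomach replicate 2, and 1 without control intestine replicate 2 or control stomach replicate 1. For the change of the organ difference edgeR called 0 targets and DESeq2 called 1, with 3 at an unadjusted p under 0.05.

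Epithelial transcripts were read beside the members because Foxa1 and Cdx1 are expressed in gut epithelium. Epcam, an epithelial surface marker, gave 149 and 115 counts in the control intestine, 522 and 531 in the control stomach, 360 and 232 in the intestine with Eed KO, and 517 and 460 in the stomach with Eed KO. Epcam overlapped between the stomach groups and was 1.08-fold lower with Eed KO (95% counting interval 0.987 to 1.18), although its log2 fold change turned to 0.40 with 1 spike-in factor and to 2.26 under spike-in totals (−0.13 relative to the median gene), while Foxa1 was 19.8-fold higher. In the intestine Epcam was 2.01-fold higher with Eed KO (95% counting interval 1.73 to 2.33) without overlap, with an adjusted p of 0.0431 and a log2 fold change just short of 1 (edgeR), and it was called under 3 of the 6 alternatives that keep all libraries and without Eed KO intestine replicate 2. Foxa1 counts per 100 Epcam counts were 0.958 and 3.77 in the control stomach and 42.7 and 59.3 in the Eed KO stomach. For the intestine these counts were 1.34 and 2.61 with Eed present and 10.3 and 15.9 with Eed KO. Cdh1, another epithelial marker, gave 16 and 11, 21 and 57, 62 and 69, and 72 and 194 counts in the same order of groups, and was higher with Eed KO by 3.41-fold in the stomach and 4.34-fold in the intestine. Cdh1 was called in neither organ by edgeR (adjusted p 0.0967 and 0.143) and in both by DESeq2, and 4 of the 6 alternatives that keep all libraries called it in each organ, with a stomach log2 fold change of 0.31 with 1 spike-in factor and 4.40 under spike-in totals. With each library left out in turn, the stomach log2 fold change of Cdh1 ran from 0.89 to 2.57. The edgeR call was gained there only without Eed KO stomach replicate 1. Foxa2 counts per 100 Cdh1 counts were 19.0 and 17.5 in the control stomach, 16.1 and 20.3 in the intestine with Eed KO, and 27.8 and 20.6 in the stomach with Eed KO, but 0 in both control intestine libraries, at 16 and 11 Cdh1 counts. Cdh1 is also among the genes named below as closest to Foxa2, so these ratios are not separate evidence. Per 100 Epcam counts Foxa2 was at 0.766 and 1.88 in the control stomach against 3.87 and 8.70 in the Eed KO stomach, and at 0 and 0 against 2.78 and 6.03 in the intestine, without overlap in either organ. Cdx1 per 100 Epcam counts was at 0.575 and 0.188 against 3.48 and 6.74 in the stomach, without overlap, and at 0 and 4.35 against 3.33 and 2.59 in the intestine, with overlap. Per 100 Cdh1 counts Cdx1 was at 14.3 and 1.75 against 25 and 16.0 in the stomach, without overlap, and overlapped in the intestine, at 0 and 45.5 against 19.4 and 8.70. Foxa1 counts per 100 Cdh1 counts were 23.8 and 35.1 in the control stomach against 307 and 141 in the Eed KO stomach, without overlap. In the intestine they were 12.5 and 27.3 in the controls against 59.7 and 53.6 with Eed KO, a smaller difference that also had no overlap.

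The epithelial list held 22 genes, of which 19 were tested at E13.5. Beside Foxa1, 3 of the 19 were called higher in the Eed KO stomach (Spint1, 4.52; Esrp1, 3.74; St14, 2.12) and 0 lower, with a median log2 fold change of 0.78 against 0.00 over all tested genes. The same 3 were called higher in the Eed KO intestine (Spint1, 3.09; St14, 3.08; Esrp1, with 1 count in the controls, at a ratio of 72.5 with a 95% counting interval of 12.7 to 2899), with a median of 1.00. The St14 call in the intestine was lost without any 1 of the 4 libraries, and that of Esrp1 without any but Eed KO intestine replicate 1. The stomach calls of Esrp1 and St14 were lost without any but Eed KO stomach replicate 1. In the control organs 4 were lower in the intestine (Cldn6, −3.62; Cldn4, −2.15; Epcam, −1.83; Prss8, −1.49), with a median of −1.24 beside −2.07 for Foxa1, which was not called, and of these 4 only Epcam kept its call without each library. Between the Eed KO organs 2 were lower in the intestine (Spint1, −1.67; Prss8, −1.32), with a median of −1.01, and for the change of the organ difference edgeR called 0 and DESeq2 1, with 3 at an unadjusted p under 0.05. In the stomach 1 epithelial gene was called beside Foxa1 without control stomach replicate 1 or Eed KO stomach replicate 2, and in the intestine 0 without control intestine replicate 1 or control intestine replicate 2. Between the control organs 1 was called without control intestine replicate 1 or control intestine replicate 2 and 2 without control stomach replicate 2, and between the Eed KO organs 0 without Eed KO intestine replicate 2 or Eed KO stomach replicate 2, with Spint1 lost also without Eed KO intestine replicate 1. Summed epithelial levels were 125.1 and 192.8 CPM in the control intestine, 216.4 and 231.8 in the control stomach, 156.3 and 140.9 in the intestine with Eed KO, and 184.7 and 246.1 in the stomach with Eed KO, with Krt19 or Krt7 the most abundant. These sums overlapped between control and Eed KO in both organs, while Cdh1 counts did not. The sums were weighted to Krt7, Krt19, Spint2, Krt18 and Krt8, at 62.4, 52.8, 37.8, 25.4 and 12.3 CPM in control stomach replicate 1. They therefore say little about the other genes of the list. Of the 19 tested, 14 had a log2 fold change above 0 with Eed KO in each organ. All 22 epithelial genes had counts in every Eed KO library, and 0 to 3 of them were at 0 in the controls. The cells were sorted by GFP, and what part epithelial cells had in the values of Foxa1, Foxa2 and Cdx1 was not tested.

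**Figure D3:**
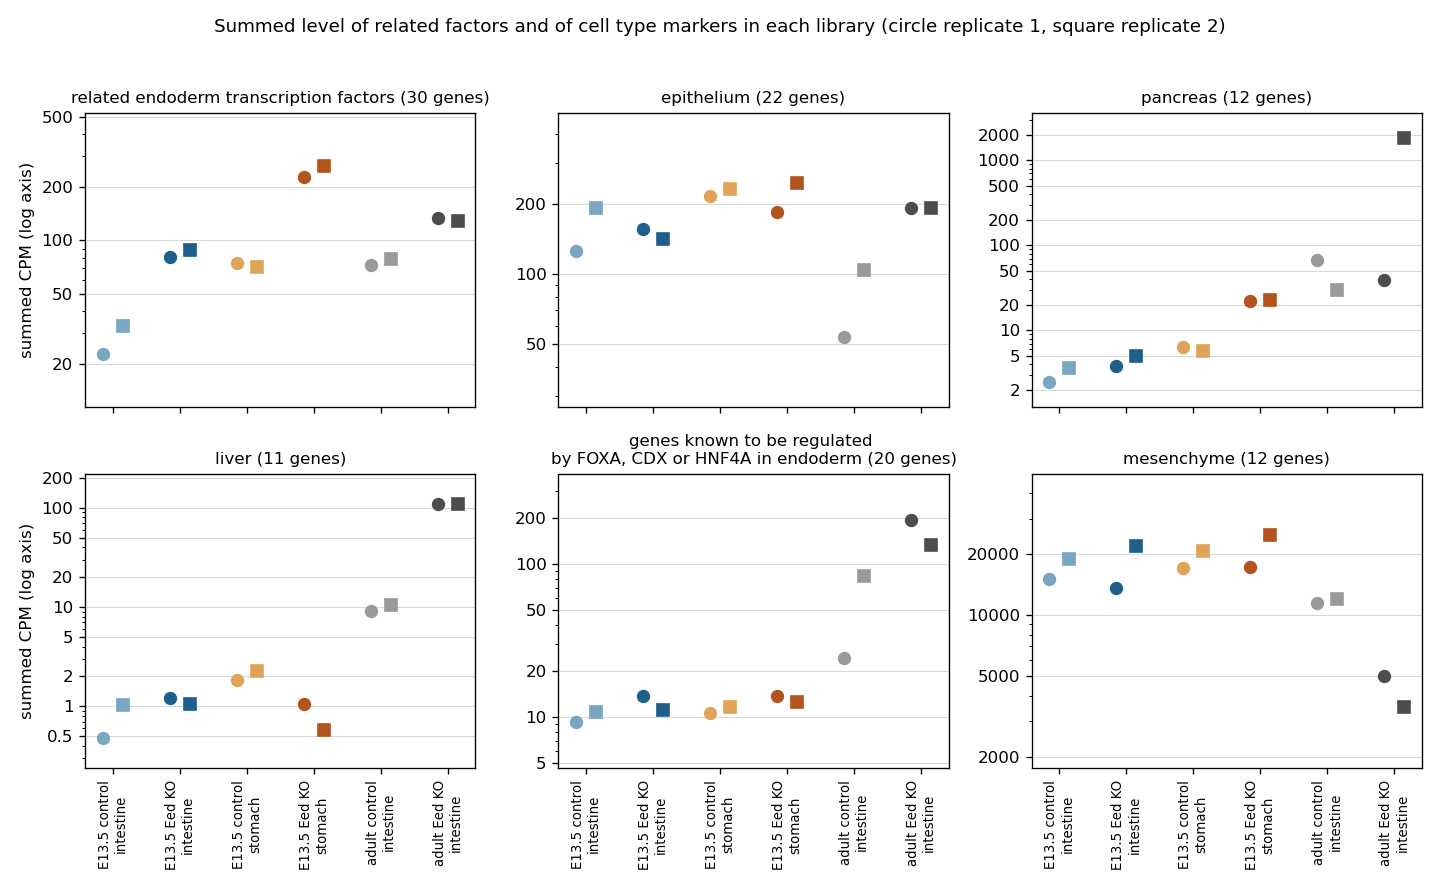
Summed level of 6 gene lists in CPM scaled by TMM (vertical axis, log scale) in the 12 RNA libraries by group (horizontal axis), 1 point per library. The related transcription factors are highest in the Eed KO stomach at 228.8 and 264.6 CPM, and the pancreas list reaches 1814 CPM in 1 adult library labelled Eed KO.

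Markers of other sites where the members are known to be expressed were read in the same way. Of genes known from notochord and floor plate, read beside Foxa2, Nkx6-1 and Spon1 were called higher in the Eed KO stomach (2.49 and 1.61) and in the Eed KO intestine (Nkx6-1, at least 4.32 on the log2 scale; Spon1, 1.74). The Spon1 call was lost without control stomach replicate 2 or Eed KO stomach replicate 2, and in the intestine without any 1 of the 4 libraries. Spon1 stood at 6.965 and 4.777 CPM in the control intestine, 16.57 and 10.73 in the control stomach, 19.83 and 19.54 in the intestine with Eed KO, and 32.58 and 50.47 in the stomach with Eed KO. The notochord gene T gave 0 counts in 6 of the embryonic libraries, 1 in Eed KO intestine replicate 2 and 2 in Eed KO stomach replicate 1. Nkx6-1 was called lower in the intestine than in the stomach in both the controls and the Eed KO cells (Eed KO −4.34), beside the lower Foxa2 there. Nkx6-1 is also a pancreas gene, and the part of either tissue in the values of Foxa2 was not tested.

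Of the 12 pancreas genes read beside Pdx1, 6 were tested at E13.5, and Nkx6-1 was the 1 called with Eed KO in either organ and the 1 called between the organs in controls and in Eed KO cells. Their sums were 2.5 and 3.63 CPM in the control intestine, 6.35 and 5.73 in the control stomach, 3.82 and 5.02 in the intestine with Eed KO, and 22.0 and 22.8 in the stomach with Eed KO, while Pdx1 stayed at 0 to 2 counts. The Nkx6-1 call in the Eed KO intestine was lost without control intestine replicate 1 or control intestine replicate 2. Nkx6-1 was the most abundant of the pancreas genes in both stomach groups. Of the 11 liver genes read beside Hnf4a and Foxa3, 3 were tested, with Alb, named above, called lower in 2 comparisons. In the Eed KO intestine and between the Eed KO organs edgeR and DESeq2 called 0 of these 3, each with 1 at an unadjusted p under 0.05. The liver sums were at most 2.27 CPM in any embryonic library. For the change of the organ difference edgeR called 0 genes of the pancreas, liver and mesenchyme lists and DESeq2 1 of each, with 1, 2 and 3 at an unadjusted p under 0.05, beside 1 of the 3 tested members.

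Among 13385 genes with a mean of at least 1 CPM, those whose log2 levels ran close to Foxa1 over the 8 embryonic libraries included Gstt3 (Pearson r 0.991) and Fibcd1 (0.987). For Foxa2 the closest were Esrp1 (0.983), Cdh1 (0.982) and Dapp1 (0.979), and for Cdx1 they included Tor4a (0.978) and Kdf1 (0.967). The 8 libraries share 4 group means, so such values are a description, and 2.54% of the genes compared had r above 0.9 with Foxa1, 2.51% with Foxa2 and 0.911% with Cdx1.

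In the adult libraries Cdx1 gave 3 and 4 counts in the controls and 61 and 53 in those labelled Eed KO. Both libraries labelled Eed KO stood far above both controls for Cdx1, at 6.11 and 4.09 CPM against 0.219 and 0.280. Cdx1 was 19.9-fold higher (95% counting interval 9.34 to 50.5), with a log2 fold change of 4.30 (SE 0.66, adjusted p 0.00448, edgeR, higher in 2 of 2 libraries). Cdx1 and Hnf4a were the 2 members tested in the adult, and Cdx1 was the 1 called, beside 19.6% of the 15039 genes tested in either direction and 12.3% as higher. With no filter Cdx1 was the 1 called of the 7 members, beside 3791 of 25231 genes in either direction. The call for Cdx1 held without each of the 4 adult libraries, with log2 fold changes of 3.96 to 4.55 and adjusted p of 0.00692 to 0.0200. Cdx1 ranked 281 by size among 1856 genes called higher, whose median was 2.34. Hnf4a gave 7 and 10 counts in the controls and 17 and 16 in the libraries labelled Eed KO, without overlap. Its ratio was 2.37 (95% counting interval 1.28 to 4.53), and its log2 fold change of 1.26 (adjusted p 0.226, higher in 2 of 2) was not called.

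The other members were near the floor in the adult. Foxa1 gave 0 and 0 counts in the adult controls and 0 and 5 in the libraries labelled Eed KO, which overlapped. Foxa2 gave 1 and 0 against 0 and 0, and no fold is given. Foxa3 gave 2 and 0 counts against 6 and 5, a ratio of 6.71 (95% counting interval 1.46 to 62.3). Cdx2 gave 0 and 14 counts against 3 and 3, so that adult control replicate 2 alone held the high value and the groups overlapped. Pdx1 gave 0 and 0 against 0 and 3, and since the adult libraries were unstranded, reads from 2210019I11Rik, which overlaps Pdx1 on the opposite strand, cannot be told apart from it. By TPM Cdx1 led in the libraries labelled Eed KO at 5.13 (SD 1.81), above Hnf4a at 0.534 (SD 0.160) and Foxa3 at 0.426 (SD 0.162), which did not differ beyond their spread, with Cdx2 at 0.206, Foxa1 at 0.0998 and Pdx1 at 0.0442. In the adult controls Cdx2 at 0.549 (SD 0.776), Cdx1 at 0.366 and Hnf4a at 0.322 did not differ beyond the spread of Cdx2. The embryonic Cdx1 mean was at most 1.23 TPM, set beside these adult values without a test because kit, strandedness and sort differed.

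The adult comparison for Cdx1 came with other differences between the groups. Mesenchyme markers summed to 11440 and 11960 CPM in the adult controls and to 5005 and 3508 in the libraries labelled Eed KO, and 6 of the 10 tested were called lower there (led by Foxf2, −1.92; Pdgfra, −1.79; Col1a1, −1.65; Col3a1, −1.60; Col1a2, −1.31), with a median of −1.46, and Foxf2 lost its call without adult control replicate 1. Epithelial genes summed to 53.6 and 104.0 CPM against 192.9 and 191.5, with 2 of 15 called higher, beside 12.3% of all tested genes (Spint1, 5.45; Prss8, at a ratio of 19.5 with a 95% counting interval of 6.29 to 97.98), a median of 0.90 and Lgals4 the most abundant in the controls and Spint1 in the others. Of the epithelial genes 6 were called higher without adult control replicate 2, and 1 without adult control replicate 1 or adult Eed KO replicate 2, while Cdx1 was called each time. The Prss8 call was lost without adult control replicate 1 or adult Eed KO replicate 1. Epcam, at 45 and 115 counts against 80 and 47, and Cdh1, at 13 and 24 against 5 and 15, overlapped between the groups, unlike Cdx1. Cdx1 counts per 100 Epcam counts were 6.67 and 3.48 in the controls and 76.2 and 113 in the libraries labelled Eed KO. The genes known to be regulated by FOXA, CDX or HNF4A summed to 24.2 and 83.4 CPM against 194.1 and 132.7, and 3 of 13 were called higher beside Cdx1 (Afp, at least 19.9-fold; Alpi, 3.51; Fabp1, 3.15), with a median of 1.20, or 9 of 13 without adult control replicate 2. Related transcription factors summed to 73.0 and 78.1 CPM against 134.3 and 129.6, with Ehf called higher (5.13) and Sox9 lower (−1.18) of 10 tested, and a median of 0.74.

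The pancreas genes summed to 67.5 and 30.1 CPM in the adult controls and to 39.7 and 1814 in the libraries labelled Eed KO, with Cpa1 the most abundant in the highest. Without that library, adult Eed KO replicate 2, Cdx1 kept its call at a log2 fold change of 4.55 (adjusted p 0.00692). Of the 5 pancreas genes tested, edgeR and DESeq2 called 0, with 4 at an unadjusted p under 0.05 and a median of 4.34, and edgeR called 4 without adult Eed KO replicate 1 and 1 without adult control replicate 1. Liver genes, read beside Hnf4a, summed to 9.20 and 10.5 CPM in the adult controls and 109.7 and 109.5 in the others, nearly all of it Trf, and 2 of 2 tested were called higher (Afp and Trf, 3.57), with a median of 5.67, or 3.94 with Afp at its lower bound. The rest of the liver list did not follow as a whole. Alb, Fga, Fgb and Fgg gave 0 counts in every adult library. Serpina1a gave 8 and 9 counts in the controls against 2 and 1, and Ttr 1 and 2 against 3 and 30. Ahsg gave 1 and 4 against 0 and 5, and Apoa2 1 and 0 against 1 and 2. The notochord and floor plate list summed to 579.9 and 551.0 against 363.5 and 236.0 CPM, nearly all Spon1, with 0 of 2 called by edgeR or DESeq2, both at an unadjusted p under 0.05, and 2 called lower without adult Eed KO replicate 1. Slc6a7, the neighbour of Cdx1 on the same strand with a gap of 4663 bp, gave 10 and 7 counts in the adult controls and 47 and 40 in the others (log2 fold change 2.65, adjusted p 0.0236). That call was lost without adult control replicate 1, adult control replicate 2 or adult Eed KO replicate 1. Pdgfrb, whose promoter drives the adult Cre, starts 8951 bp from the start of Cdx1 on the opposite strand and stood at 161.9 and 123.7 CPM in the controls and 89.1 and 92.6 in the others (log2 fold change −0.65, adjusted p 0.0624). The part of cell composition in the adult rise of Cdx1 was not tested.

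At the promoter, 6 of the 7 members had a peak within 1000 bp of the start in each of the 4 embryonic lists, beside 68.3% of 20545 coding genes in the control intestine, 68.8% in the control stomach, 70.2% in the Eed KO intestine and 70.1% in the Eed KO stomach. Hnf4a had none in any list. Fold enrichment at the Foxa1 promoter was 3.10 in the control intestine, 2.47 in the control stomach, 2.56 in the Eed KO intestine and 2.77 in the Eed KO stomach. The Foxa1 peak was 1205 and 941 bp wide in the controls and 2219 and 1977 bp wide with Eed KO, and it covered the start in all lists but that of the control stomach. Each list was called once on pooled reads and holds no read counts, so no difference between lists was tested. Median fold enrichment of coding promoter peaks was 6.78, 6.65, 6.27 and 6.49 in the same order of lists, and at most 5.01% of them were below that of Foxa1 in any list. The control lists held a weak peak at the Foxa1 promoter, where RNA was at 2 to 20 counts, but at −log10 q of at least 5 that of the control stomach was lost (2.86), as was that of the Eed KO intestine (4.64).

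Foxa2 peaks had a fold enrichment of 3.13, 2.99, 2.62 and 2.58 in that order and began 455, 454, 437 and 41 bp inside the gene, so none covered this outermost start, while the start of another Foxa2 promoter entry lay inside the peak in all 4 lists. Foxa3 peaks, at 8.41, 9.57, 6.85 and 7.43, held the start of Sympk, which lies 839 bp from that of Foxa3, and none covered the start of Foxa3. Cdx1 peaks were at 2.66, 2.66, 2.31 and 2.35 and covered the start in both stomach lists. Those of Cdx2 were at 3.43, 3.23, 3.00 and 3.12 and covered its start in the control intestine and the Eed KO stomach. Pdx1, nearly without RNA, had peaks at 2.78, 2.58, 3.27 and 3.34, against 2.47 to 3.10 for Foxa1. Except for Foxa3, then, the members with a promoter peak were all in the lowest 10% of coding promoter peaks by fold enrichment, with a highest value of 9.09% for Pdx1 in the Eed KO intestine.

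Within the gene bodies, Hnf4a had a strong peak about 28185 bp downstream of its start, at a fold enrichment of 9.54, 8.70, 9.36 and 11.01 in the order above, and a weaker one farther in at 4.06, 4.38, 5.26 and 6.74. Cdx1 had a peak near 15014 bp from its start at 5.28, 6.11, 4.25 and 5.34. At the far end of Cdx2, the Eed KO intestine list held a peak from 5751 to 8194 bp after the start at a fold enrichment of 4.61 (−log10 q 18.7), where the control lists held weaker ones at 2.25 and 2.30 and the Eed KO stomach list held none in that part of the gene. Cdx2 RNA was also highest in the Eed KO intestine at E13.5, and whether both vary together was not tested. Within 50000 bp of the start, the Foxa1 locus held 8, 10, 9 and 12 peaks, and that of Cdx2 held 14, 16, 14 and 13. The other loci held 7 to 10 (Hnf4a), 8 to 9 (Foxa2), 10 to 12 (Pdx1), 11 to 13 (Foxa3) and 15 to 21 (Cdx1).

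**Figure D4:**
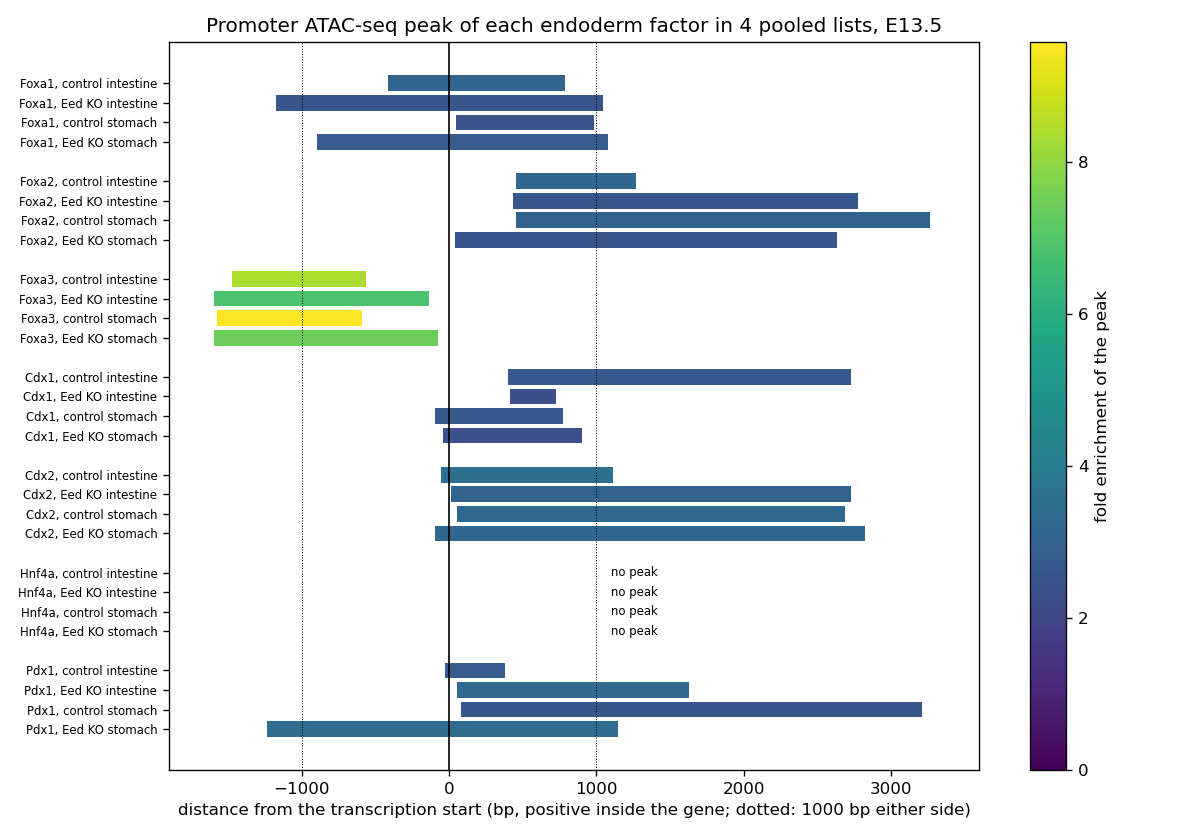
Peaks within 1000 bp of each member's start in the 4 embryonic accessibility lists, drawn as bars by distance from the start in bp (horizontal axis) and coloured by fold enrichment. Foxa3 bars, at 6.85 to 9.57, lie upstream of its start over that of Sympk, and Hnf4a has no peak.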

How the data were processed

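The authors deposited raw read counts per gene symbol for 12 RNA-seq libraries, made with Trimmomatic 0.32, STAR 2.5.1b and featureCounts on GENCODE vM4 (mm10), with 92 ERCC and 7 SIRV spike-ins. The methods of the study give featureCounts 1.5.0 for the embryonic and 1.5.3 for the adult counts, whereas the file headers of the adult libraries give 1.5.0, and the embryonic files give neither version nor strand setting. The authors also deposited 4 lists of broad ATAC-seq peaks (Omni-ATAC, BWA 0.7.8, MACS2 2.1.2, replicates pooled), with a fold enrichment over local background for each peak. The deposited lists give −log10 q for each peak as well. The 7 members and all lists were chosen with earlier results of these data known.

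Counts were fitted with edgeR 4.0.16 (TMM, filterByExpr, quasi-likelihood F-test, Benjamini-Hochberg over all tested genes) in R 4.3.3, over the 8 embryonic libraries with 1 mean per group and over the 4 adult libraries apart. The fits were tested on simulated data, in which the changed genes had more counts than most members had in the controls. That test thus does not cover genes near 0 counts in a group. Called means adjusted p under 0.05 and log2 fold change above 1 in size (adjusted p under 0.2 for the change of the organ difference, the log2 fold change of the stomach minus that of the intestine). TPM used the merged exon lengths deposited with the adult counts. Ratios of summed counts have exact 95% binomial (Clopper-Pearson) intervals. A group at 0 was set to 3 counts over the group. Promoter peaks overlapped 1000 bp around the outermost start.

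Alternatives were RLE size factors, spike-in totals, DESeq2 1.42.0, 1 factor from the spike-ins, no filter on low counts, a replicate block, each library left out in turn and, for peaks, −log10 q of at least 5, the start itself covered, 5000 bp and the RefSeq start. Named were all 7 members, Eed, Nkx3-2, antisense transcripts of members, up to 5 called genes of largest change and the most abundant gene per list, and, of the genes most correlated with each tested member on log2(CPM + 0.5), up to 3. Some genes that these rules select, and the embryonic sums and totals called of a list that holds 1 of them, are not reported here. Cdh1, T, Slc6a7, Pdgfrb, Sympk and 2210019I11Rik, and the use of Epcam as a reference, were chosen after values were seen. Lists were related endoderm transcription factors, genes regulated by FOXA, CDX or HNF4A, epithelium, liver, pancreas, notochord and floor plate, and mesenchyme. Alb, Afp, Ttr, Ptf1a, Shh and Nkx6-1 are in 2 lists each. Tables and plots used Python 3.11.15, pandas 2.3.3, numpy 2.4.6, scipy 1.17.1 and matplotlib 3.10.9.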

Additional observations from a re-analysis of the deposited data

Results flagged for a closer look

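Sox9, a related factor of endoderm progenitors, was called for the change of the organ difference, which tests directly whether the response to Eed KO differs between the organs. Control libraries held 35 and 35 Sox9 counts (intestine) against 423 and 414 (stomach), and Eed KO libraries 146 and 182 (intestine) against 568 and 486 (stomach). Its change of the organ difference, given as the stomach log2 fold change minus that of the intestine, was −1.74 (SE 0.29, adjusted p 0.108, edgeR), past the threshold of 0.2 used for that comparison. The sign means a larger rise of Sox9 with Eed KO in the intestine (log2 fold change 2.07, adjusted p 0.00535, higher in 2 of 2 libraries) than in the stomach (0.32, adjusted p 0.351). With each library left out in turn the change ranged from −1.94 to −1.51, and it was past the threshold in 2 of the 8 cases, those without Eed KO intestine replicate 1 or Eed KO intestine replicate 2. Under spike-in totals it was −1.32 (adjusted p 0.926, not called), or −1.85 relative to the shift of the median gene, and the other 5 alternatives that keep all libraries called it. None of the tested members Foxa1, Foxa2 and Cdx1 passed this test in edgeR or DESeq2, with 1 at an unadjusted p under 0.05.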

How the results depend on the processing

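Foxa1 was called higher in the Eed KO stomach under all 6 alternatives other than leaving out a library, with log2 fold changes of 3.90 to 6.73 and adjusted p of 6.47e-16 to 0.0263, and Cdx1 was called in the adult under all 6 (3.93 to 4.40). Foxa1 in the Eed KO intestine was called under 5 of 6 (3.38 to 5.49, adjusted p 4.13e-05 to 0.0592), and Foxa1 between the Eed KO organs under 5 of 6 (−3.04 to −2.69). In the Eed KO comparisons at E13.5 the calls include those under spike-in totals, where 15438 (stomach) and 13688 (intestine) of 16218 genes were called.

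In the Eed KO stomach the number of members called was 1, and it was 2 with DESeq2, which added Cdx1, and 3 with no low-count filter, with the replicate block and under spike-in totals. Of the 16218 genes tested there, 916 were called in the main fit, 1066 with DESeq2, 1206 with the block and 15438 under spike-in totals. With no filter 1268 of 25364 were called. Nearly every gene was thus called under spike-in totals, so the count of members there tells nothing particular about them. In the Eed KO intestine the number of members called was 1. It was 0 with 1 spike-in factor, 2 with DESeq2, no filter or the replicate block, and 3 under spike-in totals. Of the 16218 genes tested there, 423 were called in the main fit, 333 with 1 spike-in factor and 685 with DESeq2. The block called 631 and spike-in totals 13688, and with no filter 800 of 25364 were called. Between the control organs 0 members were called, and 1 with DESeq2, no filter or 1 spike-in factor and 2 with the replicate block. Of the 16218 genes tested there, 822 were called in the main fit, 980 with DESeq2, 1022 with 1 spike-in factor and 1123 with the block. With no filter 1107 of 25364 were called. Between the Eed KO organs 1 member was called, beside 714 of 16218 genes, and 0 under spike-in totals, beside 115. The labels do not say that a replicate number marks a shared animal, litter or day. Same-numbered embryonic libraries deviated together in all 6 pairs of groups (r of 0.122 to 0.784 over genes, 0.391 for the control organs), as a hint from the data, and the adult libraries did not (−0.076). The block added Foxa2 and Cdx1 in the stomach, Foxa2 in the intestine, and Foxa1 and Foxa2 between the control organs. The cause of these changes was not tested. For the change of the organ difference the number stayed at 0 in edgeR and DESeq2, and in the adult at 1.

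Leaving out each library in turn gave 1 member called in every case for the Eed KO stomach, 0 in every case for the intestine, 0 to 1 between the control organs, 0 to 1 between the Eed KO organs and 1 in the adult. The lone library left in a group was assumed to vary like the other groups. Cdx1 reversed between the control organs without control intestine replicate 2 (−4.09) and without control stomach replicate 2 (−0.15), within a range of −4.09 to 1.58, and its change of the organ difference (stomach minus intestine log2 fold change under Eed KO, here and below) reversed without control intestine replicate 2 (−2.66), within −2.66 to 3.00. These Cdx1 values rest on 0 and 5 counts in the control intestine.

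When libraries were scaled by spike-in totals, the median log2 fold change over all tested genes moved to 2.39 in the Eed KO stomach, 1.85 in Eed KO intestine, 0.30 between the control organs, −0.24 between the Eed KO organs, 0.53 for the change of the organ difference and −0.42 in the adult. Spike-ins took 0.0720 to 0.110% of counts in embryonic controls and 0.0134 to 0.0403% with Eed KO. Eed in the stomach then reversed to 0.14 and Epcam to 2.26, or −2.24 and −0.13 relative to the shift, and Epcam was at 0.40 with 1 spike-in factor. Relative to the shift, Foxa1 was at 4.34 in the stomach and 3.64 in the intestine, Foxa2 at 2.22 and Cdx1 at 3.59 in the stomach, and Cdx1 at 4.34 in the adult. The genes called higher and lower were 15419 and 19 for the Eed KO stomach (785 and 131 under TMM), 13664 and 24 for the intestine (386 and 37), 70 and 85 between the control organs (273 and 549 under TMM), 20 and 95 between the Eed KO organs (237 and 477), 20 and 0 for the change of the organ difference (44 and 31), and 1154 and 1321 in the adult (1856 and 1088). The 1 spike-in factor ran from −0.402 to −0.203 in the embryonic controls and from 0.0397 to 0.544 with Eed KO. As a covariate it was thus not separate from genotype, so Eed KO values fitted with it are not a plain change of processing.

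Over the alternatives other than leaving out a library, related factors called higher ranged from 6 to 16 (stomach) and from 6 to 14 (intestine) with Eed KO, and epithelial genes from 1 to 19 and from 2 to 16. Of single-gene values, 245 of those with a library left out kept direction and side of the threshold, 112 lost the threshold, 3 gained it and 3 reversed.

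Members with a promoter peak numbered 6 in each list, also within 5000 bp and from the RefSeq start. At −log10 q of at least 5 they numbered 4 (control intestine), 3 (control stomach), 2 (Eed KO intestine) and 5 (Eed KO stomach). With a peak over the start itself they numbered 3, 1, 1 and 4 in that order. The share of all coding genes that pass these 2 stricter rules was not computed. The lists also differed in the median −log10 q of coding promoter peaks, at 48.2, 42.7, 40.2 and 47.0 in that order. These counts are therefore not read as a difference of the members between lists. Depth limits Foxa3, Cdx2, Hnf4a and Pdx1 most, at 7 to 47 counts each over the 8 embryonic libraries, where differences of a few counts are not resolved.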
